A study of Mus musculus with 12 samples.

Results

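The oxidative stress and NRF2 genes described here are 36 genes that sense oxidants, make and recycle the thiols that neutralise them, break down superoxide and peroxides, supply NADPH, conjugate reactive compounds or bind metals. They form a list of gene symbols, drawn up with earlier results of these data known. The symbols were matched to Ensembl identifiers through GENCODE M21, and all 36 were found among the 31054 gene identifiers counted. All 36 also passed the filter on low counts, which kept 13141 genes. RNA was sequenced from dendritic cells grown from bone marrow of wild-type C57BL6 mice and enriched on day 7 as live cells carrying CD11c, the integrin chain used to recognise dendritic cells. The 4 groups held 3 libraries each: tolerogenic dendritic cells made with vitamin D3 and IL-10 and stimulated with lipopolysaccharide (TolDC with LPS), the same cells without LPS (TolDC), control cells with LPS (BMDC with LPS) and control cells that received none of these agents (BMDC). Lipopolysaccharide is a bacterial cell wall component recognised through Toll-like receptor 4. The sources used here give neither doses nor the length of the stimulation. They do not say whether the 3 libraries of a group are separate cultures, so the spread behind each p-value may be a technical one.

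NRF2, the protein encoded by Nfe2l2, is a transcription factor that is made continuously and, in unstressed cells, bound by KEAP1 and sent for degradation. Oxidants and electrophiles modify cysteines of KEAP1, NRF2 then accumulates, and with small MAF proteins it binds antioxidant response elements beside genes of glutathione synthesis, the thioredoxin system, NADPH supply and detoxification. In myeloid cells the same genes are also reached by inflammatory signals, and NF-kB activates some of them, Sod2 in particular. Because control of NRF2 is largely at the protein level, its transcript need not follow its activity.

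Each library held 21844405 to 41764975 reads assigned to genes, and levels are given as CPM, read counts scaled to a common library total with TMM factors, as each library's value or as mean ± SD over n = 3 libraries. Changes are log2 ± SE from edgeR's quasi-likelihood model over all 12 libraries, and a gene is called when its p-value, adjusted by Benjamini-Hochberg over all 13141 genes, is below 0.05. The model gives no SE itself, so each SE was derived as the size of the log2 change divided by the square root of its F statistic. Itgax, which encodes CD11c, averaged 1378 CPM in TolDC with LPS, 2091 CPM in TolDC, 1357 CPM in BMDC with LPS and 2077 CPM in BMDC. The other 7 dendritic cell genes checked did not move together. H2-Ab1 and H2-Aa, which encode MHC class II chains, averaged 1279.7 and 1481 CPM in TolDC with LPS, 814 and 1080.4 CPM in TolDC, 496 and 629 CPM in BMDC with LPS, and 331 and 462 CPM in BMDC. Zbtb46 averaged 16.4 CPM in TolDC with LPS, 16.8 CPM in TolDC, 64.1 CPM in BMDC with LPS and 31.9 CPM in BMDC. Group means of Cd74 lay between 4215 and 8085 CPM and those of Ptprc between 280.4 and 365 CPM, Flt3 averaged at most 1.38 CPM in any group, and Cd209a had no counts in TolDC with or without LPS.

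The 6 macrophage markers summed to 1343 to 1574 CPM in TolDC with LPS, 997 to 1039 CPM in TolDC, 824 to 961 CPM in BMDC with LPS and 1159.9 to 1257 CPM in BMDC, and single markers moved in opposite directions with LPS. Adgre1, which encodes F4/80, averaged 560.1 CPM in TolDC with LPS and 125 CPM in TolDC, and 289 CPM in BMDC with LPS and 37.3 CPM in BMDC. Mrc1, the mannose receptor, averaged 5.297 CPM in TolDC with LPS and 182 CPM in TolDC, and 14.5 CPM in BMDC with LPS and 439 CPM in BMDC. Mertk averaged 10.01 and 56.3 CPM in TolDC with and without LPS, and 28.3 and 143 CPM in BMDC with and without LPS. These markers move with the comparisons described here, and their part in the results was not tested. Libraries numbered 2 and 3 of each group were closer to each other (chi-square per degree of freedom 1.35 to 2.3 over genes) than to the library numbered 1 (5.16 to 11.6), and every pair differed beyond sampling noise. Libraries numbered 1 also stood apart in the summed level of 10 granulocyte markers: it was 735 CPM in replicate 1 and 991 to 1068 CPM in replicates 2 and 3 of TolDC with LPS, 577 against 1076 to 1090 CPM in TolDC, 340.1 against 1475 to 1626 CPM in BMDC with LPS, and 645 against 2498 to 2567 CPM in BMDC. In TolDC much of this sum was Mmp8, at 573 CPM with LPS and 460.0 CPM without, against 11.4 CPM in BMDC with LPS and 53.3 CPM in BMDC. Without Mmp8, a sum chosen after its level was seen, the other 9 markers gave 167 CPM in replicate 1 and 413.5 to 495 CPM in replicates 2 and 3 of TolDC with LPS, and 123 against 613.5 to 627 CPM in TolDC. The same sum was 330.1 against 1462 to 1615 CPM in BMDC with LPS and 600 against 2440 to 2510 CPM in BMDC. For each replicate number it was lower in TolDC than in BMDC, with and without LPS. The 7 mast cell and basophil markers summed to 71.5 to 72.3 CPM in the libraries numbered 1 of the TolDC groups and 220 to 262 CPM in their others. In the BMDC groups the sums were lower, at 29.2 to 29.4 CPM and 109 to 146 CPM. The mast cell sum and the granulocyte sum without Mmp8 thus also differ between the cell types compared. Their part in the results was not tested. The 9 erythroid markers, relevant because Prdx2, Cat, Blvrb and Gpx1 are abundant in red cells, summed to at most 6.203 CPM in any library. In such bulk samples, fewer cells of a type and less RNA per cell cannot be told apart.

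Together the 36 genes took a larger share of the reads with LPS in both kinds of cell. The share was 1.53% ± 0.0135 in TolDC with LPS and 0.827% ± 0.00894 in TolDC, and 1.44% ± 0.00137 in BMDC with LPS and 0.877% ± 0.00576 in BMDC. Abundant genes weigh most in such a share, and Prdx1 alone went from 1045 to 3895 CPM in TolDC and from 1055 to 3960 CPM in BMDC. In BMDC, LPS raised 25 of the 36 and lowered 9, against 36.7% and 36.4% of all genes tested called higher and lower, and the median log2 change was 0.56 for the members and −0.000288 for all genes. In TolDC, LPS raised 25 and lowered 5, against 35.4% and 35.9% of all genes, with medians of 0.63 for the members and −0.00168 for all genes. At least 2-fold rises numbered 11 in each kind of cell, against 11.2% of all genes in BMDC and 9.64% in TolDC, and at least 2-fold falls numbered 1 in each, against 11% and 10.6%. Between the cell types the directions were mixed. Without LPS, 14 members were higher and 17 lower in TolDC than in BMDC, against 32% and 30.4% of all genes, and with LPS 14 were higher and 13 lower, against 34.3% and 33.7%. The median differences were −0.051 without LPS and 0.0033 with LPS, and 0.0091 and 0.024 over all genes. At least 2-fold differences were few, as they were among all genes. Without LPS, Nqo1 and Mt2 were higher and Gstm1, Prdx4 and Gstp1 lower, against 6.49% and 8.03% of all genes. With LPS, Mt1 and Mt2 were higher and Prdx4 and Me1 lower, against 6.85% and 9.5%. The 3 libraries of TolDC with LPS lay wholly above those of TolDC in 27 members and wholly below in 5 (75.6% of all genes did either), and those of BMDC with LPS above those of BMDC in 25 and below in 9 (74.8%). TolDC lay wholly above BMDC in 15 members and below in 16 (66.9%) without LPS, and above in 14 and below in 15 (71.4%) with LPS.

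**Figure D1:**
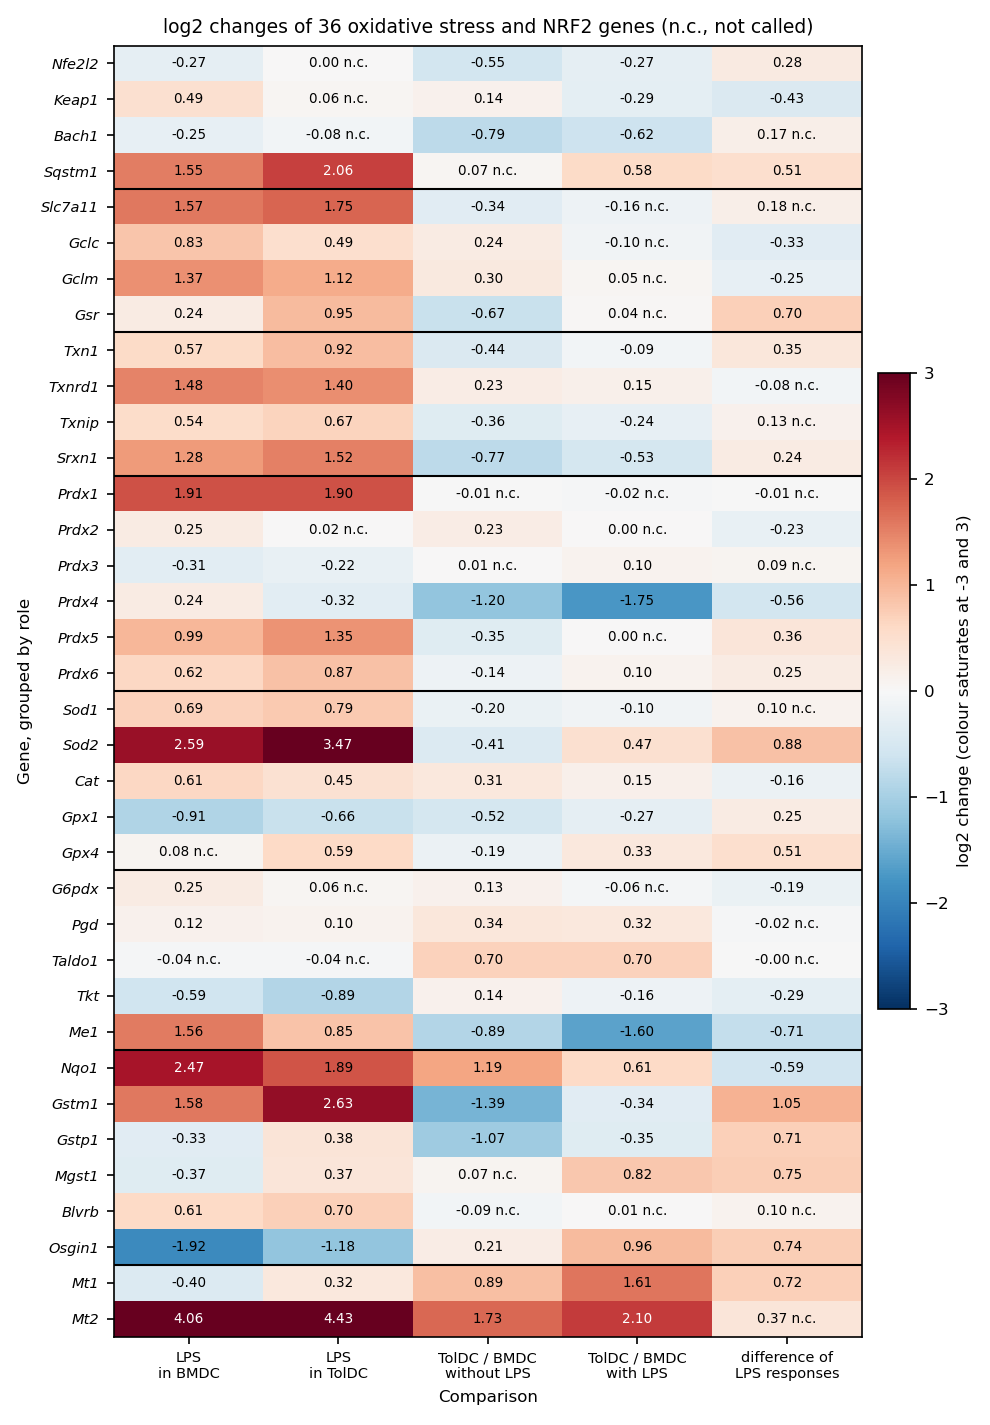
Fitted log2 changes of the 36 genes (rows, grouped by role) in the 5 comparisons (columns), with red for higher, blue for lower and n.c. for values that were not called. The LPS columns are mostly red in both kinds of cell, up to 4.43 for Mt2 in TolDC, while the TolDC against BMDC columns hold both colours in most roles.

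Among the regulators, the transcripts of NRF2 and of its repressors moved less with LPS than that of the autophagy receptor. Between TolDC and BMDC without LPS, Bach1 (−0.79) and Nfe2l2 (−0.55) differed more than Sqstm1, which was not called (0.07 ± 0.039, edgeR adjusted p = 0.147). With LPS, Sqstm1 was higher in TolDC by 0.58 ± 0.039 and Bach1 lower (−0.62 ± 0.069). Nfe2l2 had 135, 135 and 137 CPM in TolDC with LPS and 134, 137 and 135 CPM in TolDC. The BMDC libraries had 168, 164 and 159.8 CPM with LPS and 202, 199 and 194 CPM without. The 3 libraries of each BMDC group were above all TolDC libraries. In BMDC, Nfe2l2 fell (−0.27 ± 0.035, edgeR adjusted p = 8.66e-07), while in TolDC it was not called (0.00 ± 0.035, edgeR adjusted p = 0.943), and it was lower in TolDC than in BMDC both without LPS (−0.55 ± 0.035) and with it (−0.27 ± 0.035).

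Keap1, the adaptor that hands NRF2 to a ubiquitin ligase, had 77.6, 76.6 and 75.96 CPM in TolDC with LPS and 73.1, 74.7 and 73.6 CPM in TolDC. BMDC with LPS had 91.9, 97.8 and 92.5 CPM and BMDC 67.4, 67.97 and 66.2 CPM. The 3 BMDC with LPS libraries were the highest of all 12. Keap1 rose with LPS in BMDC (0.49 ± 0.037, edgeR adjusted p = 8.01e-10) and was not called in TolDC (0.06 ± 0.037, edgeR adjusted p = 0.181), and the difference between these responses was itself called (−0.43 ± 0.052, edgeR adjusted p = 2.50e-06). Against BMDC, Keap1 in TolDC was lower with LPS (−0.29 ± 0.037) and slightly higher without (0.14 ± 0.037), a call that was lost without BMDC replicate 3 (0.10).

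Bach1, a haem-binding repressor that competes with NRF2 for its sites, had 28.7, 34.03 and 31.5 CPM in TolDC with LPS and 32.05, 31.5 and 35.8 CPM in TolDC. For BMDC, levels were 53.1, 46.8 and 44.8 CPM with LPS and 57.7, 58.2 and 56.1 CPM without LPS. All 6 TolDC libraries were below all 6 BMDC libraries. The difference between TolDC and BMDC was −0.79 ± 0.069 without LPS and −0.62 ± 0.069 with LPS on the log2 scale (edgeR adjusted p = 2.56e-08 and 4.39e-07). LPS lowered Bach1 in BMDC (−0.25 ± 0.067) and gave −0.08 ± 0.070 in TolDC, which was not called (edgeR adjusted p = 0.333).

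Sqstm1, which encodes the autophagy receptor p62 that sequesters KEAP1 and is itself an NRF2 target, had 2275, 2101 and 2159 CPM in TolDC with LPS and 534, 517 and 520.1 CPM in TolDC. Levels of 1516, 1424 and 1441 CPM were measured in BMDC with LPS, against 504, 491 and 506 CPM in BMDC. The groups with LPS did not overlap those without it, and TolDC with LPS lay above BMDC with LPS. Sqstm1 rose by 2.06 ± 0.040 in TolDC and 1.55 ± 0.040 in BMDC (edgeR adjusted p = 1.50e-18 and 8.17e-17), and the rise in TolDC was the larger by 0.51 ± 0.055 (edgeR adjusted p = 5.58e-07).

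**Figure D2:**
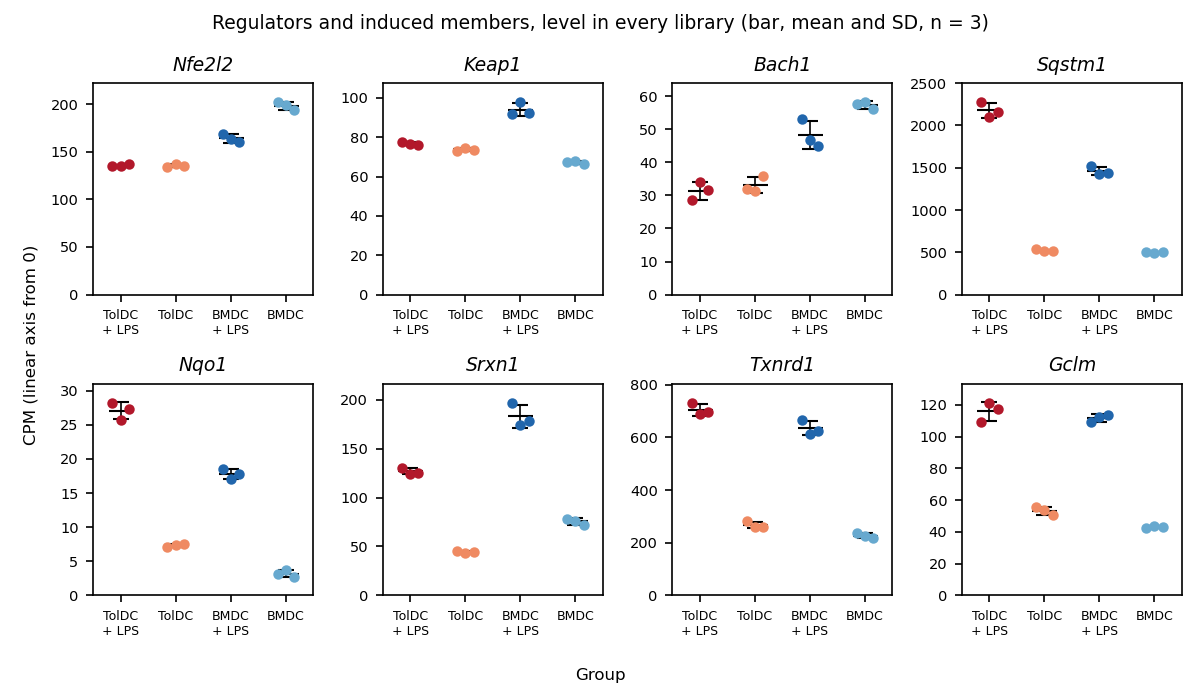
Level in CPM (linear axis from 0) of 4 regulators (top row) and 4 induced genes (bottom row) in each of the 12 libraries (points), with mean and SD per group (bars, n = 3). Nfe2l2 and Bach1 are lower in TolDC than in BMDC, while Sqstm1, Nqo1, Srxn1, Txnrd1 and Gclm stand above their unstimulated levels in every library with LPS.

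All 4 genes of glutathione supply rose with LPS in both kinds of cell. Slc7a11, the cystine transporter that feeds glutathione synthesis, Gclc and Gclm, the catalytic and modifier subunits of its rate-limiting enzyme, and Gsr, which returns oxidised glutathione to its reduced form, are textbook NRF2 targets. Slc7a11 averaged 804 ± 29.8 CPM in TolDC with LPS and 239 ± 17.4 CPM in TolDC, and 895 ± 77.9 CPM in BMDC with LPS and 301 ± 26.5 CPM in BMDC. Its log2 change was 1.75 ± 0.076 in TolDC and 1.57 ± 0.075 in BMDC. Gclm averaged 116 ± 6.14 CPM in TolDC with LPS and 53.2 ± 2.47 CPM in TolDC, and 112 ± 2.51 CPM in BMDC with LPS and 43.1 ± 0.657 CPM in BMDC. Gclm rose by 1.12 ± 0.045 in TolDC and 1.37 ± 0.046 in BMDC, and Gclc by 0.49 ± 0.049 in TolDC and 0.83 ± 0.050 in BMDC, both more in BMDC (difference −0.25 ± 0.064 for Gclm and −0.33 ± 0.070 for Gclc). Gsr was the exception in the other direction. Gsr averaged 351 ± 37.3 CPM in TolDC with LPS and 182 ± 16.9 CPM in TolDC, and 342 ± 10.2 CPM in BMDC with LPS and 289.8 ± 15.3 CPM in BMDC. It rose by 0.95 ± 0.081 in TolDC and by 0.24 ± 0.080 in BMDC. The call in BMDC was lost without BMDC replicate 1 (0.20), and the difference between the responses was 0.70 ± 0.11 (edgeR adjusted p = 0.000281). Without LPS, Slc7a11 and Gsr were lower in TolDC (−0.34 ± 0.074 and −0.67 ± 0.081), and Gclc and Gclm higher (0.24 ± 0.051 and 0.30 ± 0.047). With LPS, none of the 4 was called between TolDC and BMDC, with values of −0.16 ± 0.073 for Slc7a11, −0.10 ± 0.047 for Gclc, 0.05 ± 0.044 for Gclm and 0.04 ± 0.079 for Gsr (edgeR adjusted p = 0.0751, 0.0741, 0.295 and 0.701). When the libraries numbered 1 were left out, Slc7a11 (−0.0985) and Gsr (0.0994) became called.

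The 4 genes of the thioredoxin system rose with LPS in both kinds of cell too. Txn1 encodes thioredoxin, Txnrd1 the NADPH-dependent reductase that recharges it, Srxn1 sulfiredoxin, which repairs over-oxidised peroxiredoxins, and Txnip an inhibitor of thioredoxin. Txnrd1 averaged 705 ± 23.05 CPM in TolDC with LPS and 266 ± 12.4 CPM in TolDC, and 636 ± 27.1 CPM in BMDC with LPS and 227 ± 9.33 CPM in BMDC. Txnrd1 rose by 1.40 ± 0.046 in TolDC and 1.48 ± 0.046 in BMDC. Srxn1 averaged 127 ± 3.12 CPM in TolDC with LPS and 44.2 ± 1.34 CPM in TolDC, and 183 ± 12.2 CPM in BMDC with LPS and 75.5 ± 3.12 CPM in BMDC. Srxn1 rose by 1.52 ± 0.049 in TolDC and 1.28 ± 0.047 in BMDC, yet it was lower in TolDC than in BMDC both without LPS (−0.77 ± 0.050) and with it (−0.53 ± 0.046). Txn1 averaged 552 ± 10.3 CPM in TolDC with LPS and 291 ± 6.97 CPM in TolDC, and 586 ± 4.87 CPM in BMDC with LPS and 394 ± 12.2 CPM in BMDC. The rise of Txn1 was larger in TolDC (0.92 ± 0.037) than in BMDC (0.57 ± 0.036), with a difference of 0.35 ± 0.051 (edgeR adjusted p = 2.04e-05). Txnip averaged 353 ± 5.97 CPM in TolDC with LPS and 221 ± 2.47 CPM in TolDC, and 415 ± 19.6 CPM in BMDC with LPS and 285 ± 10.95 CPM in BMDC. Txnip, the inhibitor, rose by 0.67 ± 0.041 in TolDC and 0.54 ± 0.041 in BMDC and was lower in TolDC at rest (−0.36 ± 0.041) and with LPS (−0.24 ± 0.040). Between TolDC and BMDC with LPS, the calls for Txn1 (−0.09 ± 0.036) and Txnrd1 (0.15 ± 0.045) were the small ones. That of Txn1 was lost without any of 8 libraries (BMDC replicate 2, all 3 of BMDC with LPS, and replicates 2 and 3 of TolDC and of TolDC with LPS, −0.093 to −0.068), and that of Txnrd1 without TolDC with LPS replicate 1 (0.11).

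The start regions of Gclm and Txnrd1, subunit and reductase of these systems that rose at least 2-fold in both kinds of cell, are shown because each holds the core of an antioxidant response element. The letters searched were TGACNNNGC on both strands in RefSeq windows of 250 bases before to 50 after the start (GRCm38.p6), and capitals mark the match. The Gclm window is chr3:122245307-122245606, plus strand, with the match on the opposite strand from position −134. It overlaps a match to the metal response element given with the metallothioneins. The Txnrd1 window, the second of 3 in the table, is chr10:82858956-82859255, plus strand, with the match on the opposite strand from −92.
Gclm: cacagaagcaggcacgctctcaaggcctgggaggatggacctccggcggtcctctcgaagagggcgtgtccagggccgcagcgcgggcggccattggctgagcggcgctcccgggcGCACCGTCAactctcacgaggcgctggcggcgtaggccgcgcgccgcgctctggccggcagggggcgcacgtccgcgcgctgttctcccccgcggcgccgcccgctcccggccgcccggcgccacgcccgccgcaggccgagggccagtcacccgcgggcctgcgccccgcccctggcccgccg
Txnrd1: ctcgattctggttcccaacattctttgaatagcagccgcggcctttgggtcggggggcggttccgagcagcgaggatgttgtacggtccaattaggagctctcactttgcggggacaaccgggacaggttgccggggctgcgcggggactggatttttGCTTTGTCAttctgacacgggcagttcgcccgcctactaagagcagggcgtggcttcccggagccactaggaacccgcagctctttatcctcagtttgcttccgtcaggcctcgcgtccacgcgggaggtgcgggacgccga
Windows were found for 33 of the 36 members, and 11 of these genes (33.3%) held this core in at least 1 window, against 3781 of 27025 genes in the table (14%). The 11 were G6pdx, Gclm, Me1, Mgst1, Mt2, Nfe2l2, Pgd, Prdx1, Sod1, Srxn1 and Txnrd1, whose LPS responses ranged from strong rises (Mt2, Prdx1) to a fall in BMDC (Nfe2l2 and Mgst1). A match is a description of letters in the window and does not show binding.

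The peroxiredoxins, thiol enzymes that reduce peroxides with electrons from thioredoxin (Prdx6 uses glutathione), divided into 3 that rose with LPS in both kinds of cell and 3 that did not. Prdx1, the abundant cytosolic form, had 4064, 3790.3 and 3832 CPM in TolDC with LPS and 1067, 1053 and 1014 CPM in TolDC. In BMDC with LPS it had 4266, 3777 and 3837 CPM, against 1069.7, 1063 and 1033 CPM in BMDC. The libraries with LPS lay far above the others and TolDC and BMDC overlapped in both states. Prdx1 rose by 1.90 ± 0.047 in TolDC and 1.91 ± 0.047 in BMDC (edgeR adjusted p = 4.64e-17 and 3.99e-17), and the difference between these responses was −0.01 ± 0.064 (edgeR adjusted p = 0.926). Prdx5, found in several organelles, averaged 1199 ± 70.2 CPM in TolDC with LPS and 469.6 ± 25.4 CPM in TolDC, and 1196 ± 77.6 CPM in BMDC with LPS and 600.1 ± 43.1 CPM in BMDC. It rose by 1.35 ± 0.062 in TolDC and 0.99 ± 0.062 in BMDC. Prdx6 rose by 0.87 ± 0.040 in TolDC and 0.62 ± 0.040 in BMDC. Both rises were larger in TolDC, by 0.36 ± 0.086 for Prdx5 and 0.25 ± 0.056 for Prdx6, and without LPS both genes were lower there (−0.35 ± 0.061 and −0.14 ± 0.040).

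Of the other peroxiredoxins, the mitochondrial Prdx3 fell in both kinds of cell, with log2 changes of −0.22 ± 0.043 in TolDC and −0.31 ± 0.044 in BMDC. Prdx2, a cytosolic form abundant in red cells, rose in BMDC (0.25 ± 0.037) and gave 0.02 ± 0.037 in TolDC, which was not called (edgeR adjusted p = 0.619). Without LPS it was higher in TolDC (0.23 ± 0.037). Prdx4, the secretory pathway form, had 12.04, 11.7 and 10.6 CPM in TolDC with LPS and 14.4, 14.001 and 14.2 CPM in TolDC. The BMDC libraries had 41.8, 35.8 and 37.6 CPM with LPS and 33.4, 31.6 and 32.7 CPM without. All 6 TolDC libraries were below all 6 BMDC libraries. The log2 difference of Prdx4 between TolDC and BMDC was −1.20 ± 0.065 without LPS and −1.75 ± 0.065 with LPS (edgeR adjusted p = 1.24e-11 and 3.30e-14). It fell with LPS in TolDC (−0.32 ± 0.070) and rose in BMDC (0.24 ± 0.060), and this difference was called (−0.56 ± 0.093, edgeR adjusted p = 8.05e-05). Between TolDC and BMDC with LPS, Prdx3 (0.10 ± 0.044) and Prdx6 (0.10 ± 0.039) were barely called. The call of Prdx3 was lost without BMDC replicate 3, BMDC with LPS replicate 2 or 3 or TolDC with LPS replicate 1 (0.062 to 0.101), and that of Prdx6 without BMDC replicate 3 or replicates 1 or 2 of either group with LPS (0.077 to 0.101).

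Superoxide dismutases turn superoxide into hydrogen peroxide, and catalase and glutathione peroxidases remove the peroxide. Sod2, the mitochondrial manganese enzyme, had 1004, 1136 and 1116 CPM in TolDC with LPS and 98.4, 98.1 and 96.8 CPM in TolDC. BMDC with LPS had 731, 809 and 805 CPM and BMDC 131, 132 and 127 CPM. Every library with LPS was far above every library without, and the order of the cell types turned round between the states. Sod2 was lower in TolDC than in BMDC without LPS (−0.41 ± 0.050) and higher with it (0.47 ± 0.048). It rose by 3.47 ± 0.053 in TolDC and 2.59 ± 0.051 in BMDC, a difference of 0.88 ± 0.069 (edgeR adjusted p = 8.81e-09). Of the 50-base stretches in annotated Sod2 transcripts, 21% also occur in transcripts of other genes, so part of its reads may be missing from the counts. The cytosolic copper-zinc enzyme Sod1 rose less, by 0.79 ± 0.034 in TolDC and 0.69 ± 0.034 in BMDC, and was lower in TolDC than in BMDC without LPS (−0.20 ± 0.035) and with it (−0.10 ± 0.033). Cat, catalase, averaged 191 ± 2.91 CPM in TolDC with LPS and 139.8 ± 4.61 CPM in TolDC, and 172 ± 10.7 CPM in BMDC with LPS and 113 ± 2.85 CPM in BMDC. It rose in both kinds of cell and was higher in TolDC without LPS (0.31 ± 0.044) and with it (0.15 ± 0.043), the second a call lost with libraries numbered 2 and 3 summed (0.13).

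Gpx1, the main cytosolic glutathione peroxidase, had 568, 561 and 573 CPM in TolDC with LPS and 892, 904 and 896 CPM in TolDC. For BMDC, levels were 684, 678 and 695 CPM with LPS and 1359.7, 1233 and 1279 CPM without LPS. It was the only one of these 5 enzymes to fall in both kinds of cell, and no 2 groups overlapped. Gpx1 fell in TolDC (−0.66 ± 0.038) and in BMDC (−0.91 ± 0.038; edgeR adjusted p = 1.21e-11 and 8.86e-14), and it was lower in TolDC than in BMDC without LPS (−0.52 ± 0.038) and with it (−0.27 ± 0.038). Gpx4, which reduces lipid peroxides in membranes and so restrains ferroptosis, averaged 348 ± 8.14 CPM in TolDC with LPS and 231 ± 17.5 CPM in TolDC, and 277 ± 1.19 CPM in BMDC with LPS and 263 ± 20.7 CPM in BMDC. It rose in TolDC (0.59 ± 0.055) and was not called in BMDC (0.08 ± 0.055, edgeR adjusted p = 0.214), with a difference of 0.51 ± 0.078 (edgeR adjusted p = 3.54e-05). Its lower level in TolDC at rest (−0.19 ± 0.055) was no longer called without TolDC replicate 1 (−0.13). Pseudogenes of Gpx4 share 34.7% of its 50-base stretches, which makes its level uncertain.

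Per kilobase of annotated exon, Prdx1 was the highest of these 11 enzymes with LPS and Gpx1 without. Prdx1 was at 1280.1 CPM per kilobase in TolDC with LPS and 343 in TolDC, and at 1301 in BMDC with LPS and 347 in BMDC. Gpx1 was at 394 CPM per kilobase in TolDC with LPS and 623 in TolDC, and at 476 in BMDC with LPS and 896 in BMDC. Prdx4 was the lowest of the 11 in both TolDC groups and in BMDC with LPS, and Sod2 in BMDC. These ranks depend on the merged exon lengths, 3043 bases for Prdx1, 1441 for Gpx1 and 10008 for Sod2. Which transcripts the cells used was not tested. In CPM, Prdx1 was above Gpx1 in TolDC (1045 against 897) and below it in BMDC (1055 against 1291).

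**Figure D3:**
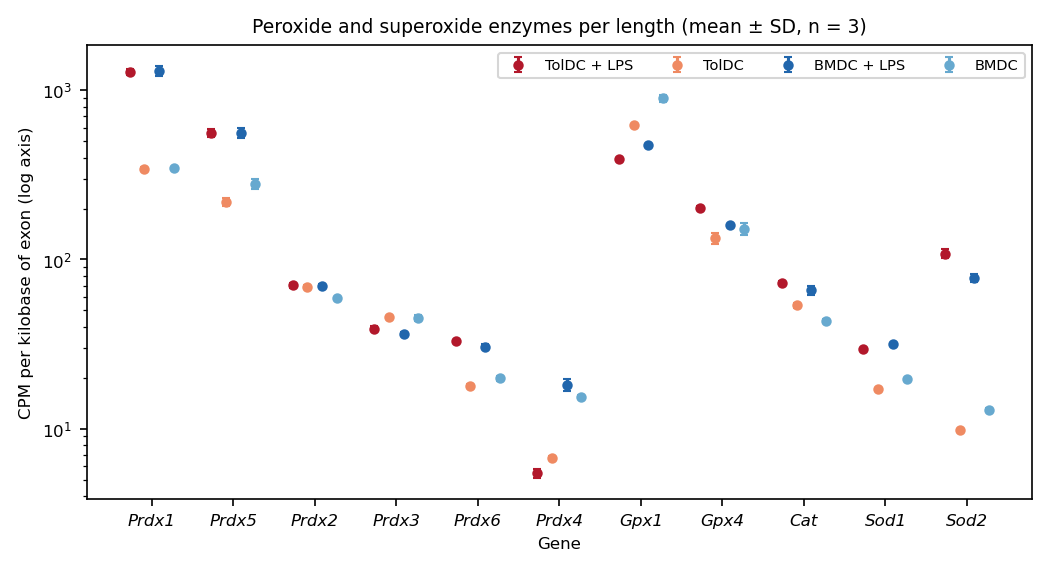
Mean ± SD (n = 3) of CPM per kilobase of exon, on a log axis, for 6 peroxiredoxins, 2 glutathione peroxidases, catalase and 2 superoxide dismutases in the 4 groups. With LPS (dark symbols) Prdx1, Prdx5 and Sod2 stand above their unstimulated levels and Gpx1 below.

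Of the 5 genes of NADPH supply, LPS raised 2 and lowered 1 in TolDC and raised 3 and lowered 1 in BMDC, and the only change of at least 2-fold was that of Me1 in BMDC. G6pdx and Pgd are the NADPH-forming dehydrogenases of the pentose phosphate pathway, Taldo1 and Tkt its non-oxidative enzymes transaldolase and transketolase, and Me1 the cytosolic malic enzyme. Tkt had 412, 421 and 407 CPM in TolDC with LPS and 763, 763 and 764 CPM in TolDC. Levels of 464, 458 and 460.0 CPM were measured in BMDC with LPS, against 688, 687 and 706 CPM in BMDC. The groups with LPS lay below those without. Tkt fell in TolDC (−0.89 ± 0.033) and in BMDC (−0.59 ± 0.033; edgeR adjusted p = 2.21e-14 and 8.10e-12). Taldo1 had 596, 585 and 576 CPM in TolDC with LPS and 580.4, 609.7 and 621 CPM in TolDC. In BMDC with LPS it had 364, 356 and 362 CPM, against 361, 377 and 376 CPM in BMDC. All 6 TolDC libraries were above all 6 BMDC libraries, and the libraries with LPS overlapped those without in both kinds of cell. Taldo1 was higher in TolDC by 0.70 ± 0.037 without LPS and 0.70 ± 0.037 with LPS (edgeR adjusted p = 7.15e-12 and 5.98e-12), and LPS gave −0.04 ± 0.037 in TolDC and −0.04 ± 0.037 in BMDC, neither called (edgeR adjusted p = 0.295 and 0.3). When the libraries numbered 1 were left out, small falls of Taldo1 with LPS became called in TolDC (−0.084) and in BMDC (−0.071).

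Pgd had 565, 589 and 574 CPM in TolDC with LPS and 531, 545 and 541 CPM in TolDC. The BMDC libraries had 435, 475 and 479 CPM with LPS and 412, 434 and 432 CPM without. Like Taldo1 it was higher in TolDC, by 0.34 ± 0.041 without LPS and 0.32 ± 0.041 with LPS (edgeR adjusted p = 8.34e-07 and 1.68e-06). Its LPS responses were small, 0.10 ± 0.041 in TolDC and 0.12 ± 0.041 in BMDC. The call in BMDC was lost without BMDC replicate 1 or BMDC with LPS replicate 2 or 3 (0.093 to 0.101), and that in TolDC without BMDC replicate 2, any TolDC replicate or TolDC with LPS replicate 2 or 3 (0.082 to 0.104). G6pdx rose in BMDC (0.25 ± 0.033) and gave 0.06 ± 0.033 in TolDC, which was not called (edgeR adjusted p = 0.101), and without LPS it was higher in TolDC (0.13 ± 0.033). Me1 had 2.28, 2.32 and 2.77 CPM in TolDC with LPS and 1.51, 1.14 and 1.44 CPM in TolDC. BMDC with LPS had 8.58, 6.59 and 7.24 CPM and BMDC 3.18, 2.07 and 2.37 CPM. These are low levels, from 28 counts in a library, and pseudogenes share 22.9% of the 50-base stretches of Me1. BMDC with LPS lay above the other groups. Me1 rose by 0.85 ± 0.19 in TolDC and 1.56 ± 0.16 in BMDC. Its log2 difference between TolDC and BMDC was −1.60 ± 0.15 with LPS (edgeR adjusted p = 3.17e-08) and −0.89 ± 0.19 without.

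Of the 6 detoxification genes, LPS raised Nqo1, Gstm1 and Blvrb in both kinds of cell, lowered Osgin1 in both, and raised Gstp1 and Mgst1 in TolDC while lowering them in BMDC. Nqo1, the quinone reductase most used as a readout of NRF2, had 28.2, 25.8 and 27.3 CPM in TolDC with LPS and 7.06, 7.39 and 7.51 CPM in TolDC. For BMDC, levels were 18.5, 17.003 and 17.8 CPM with LPS and 3.18, 3.66 and 2.67 CPM without LPS. The 4 groups did not overlap, with TolDC above BMDC in each state. Nqo1 rose with LPS by 1.89 ± 0.079 in TolDC and 2.47 ± 0.092 in BMDC (edgeR adjusted p = 1.17e-13 and 1.63e-14). It was higher in TolDC by 1.19 ± 0.0998 without LPS and 0.61 ± 0.073 with LPS, and the responses differed by −0.59 ± 0.12 (edgeR adjusted p = 0.000832).

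Gstm1, a mu-class glutathione transferase, had 105, 109.8 and 110.3 CPM in TolDC with LPS and 16.3, 18.3 and 17.97 CPM in TolDC. Levels of 134, 138 and 139 CPM were measured in BMDC with LPS, against 42.1, 48.5 and 47.1 CPM in BMDC. TolDC without LPS lay below all other groups. Gstm1 rose by 2.63 ± 0.056 in TolDC and 1.58 ± 0.051 in BMDC (edgeR adjusted p = 4.79e-18 and 1.89e-15), and its log2 difference between TolDC and BMDC was −1.39 ± 0.057 without LPS and −0.34 ± 0.048 with LPS, a difference between the responses of 1.05 ± 0.075 (edgeR adjusted p = 3.07e-09). This was the only member whose responses differed at least 2-fold, against 3.67% of all genes upward and 4.62% downward. Gstp1, the pi-class transferase, had 11.2, 11.5 and 11.9 CPM in TolDC with LPS and 8.01, 9.35 and 9.303 CPM in TolDC. In BMDC with LPS it had 15.3, 15.3 and 13.7 CPM, against 17.9, 18.2 and 19.9 CPM in BMDC. The 2 TolDC groups lay below the 2 BMDC groups, and LPS moved them in opposite directions: Gstp1 rose in TolDC (0.38 ± 0.080) and fell in BMDC (−0.33 ± 0.075). Related genes share 18.9% of the 50-base stretches of Gstm1 and 33.7% of those of Gstp1, so both levels are uncertain.

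Mgst1, a membrane-bound transferase, had 167, 174 and 175 CPM in TolDC with LPS and 124, 135 and 139 CPM in TolDC. The BMDC libraries had 88.5, 103 and 101 CPM with LPS and 111, 135 and 133 CPM without. TolDC with LPS was above and BMDC with LPS below the unstimulated groups, which overlapped. Mgst1 rose in TolDC (0.37 ± 0.075) and fell in BMDC (−0.37 ± 0.077), and with LPS it was higher in TolDC by 0.82 ± 0.076 (edgeR adjusted p = 6.45e-07). Mgst1, Gstm1, Gsr, Prdx5 and Pgd were the 5 members lower in replicate 1 than in the mean of replicates 2 and 3 in all 4 groups, and 9 members were higher there in all 4. The summed granulocyte and mast cell markers were also lower in replicate 1 of all 4 groups, and a link to these members was not tested. Without the libraries numbered 1 the changes of Mgst1 were 0.35 in TolDC and −0.39 in BMDC, those of Gstm1 2.60 and 1.54, and those of Gsr 0.96 and 0.22. Of the 147 calls over the 36 members and 5 comparisons, 145 held without these libraries, and those of Prdx3 (0.09) and Prdx6 (0.07) between TolDC and BMDC with LPS did not. Blvrb, biliverdin reductase B, rose by 0.70 ± 0.039 in TolDC and 0.61 ± 0.039 in BMDC and was not called between the cell types in either state, with −0.09 ± 0.039 without LPS and 0.01 ± 0.038 with LPS (edgeR adjusted p = 0.0588 and 0.849).

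Osgin1, an oxidative stress induced growth inhibitor, had 13.97, 16.3 and 16.1 CPM in TolDC with LPS and 35.3, 35.2 and 34.5 CPM in TolDC. BMDC with LPS had 6.44, 8.89 and 8.81 CPM and BMDC 29.8, 28.8 and 32.02 CPM. Both groups with LPS lay below both groups without. Osgin1 was the member with the largest falls, with log2 changes of −1.18 ± 0.083 in TolDC and −1.92 ± 0.094 in BMDC (edgeR adjusted p = 5.89e-10 and 2.83e-12). With LPS it was higher in TolDC by 0.96 ± 0.098. Without LPS the difference was 0.21 ± 0.080, a call lost without BMDC replicate 1 or 2 or any TolDC replicate (0.179 to 0.225).

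Metallothioneins, small cysteine-rich proteins that bind zinc and copper and scavenge oxidants, were the only members at least 2-fold higher in TolDC than in BMDC with LPS. Mt1 (chromosome 8, 94179082 to 94180327 of GRCm38, plus strand) and Mt2 (chromosome 8, 94172664 to 94173568 of GRCm38, plus strand) are neighbours, and their genes responded differently to LPS. Mt1 had 106, 89.2 and 93.1 CPM in TolDC with LPS and 74.9, 74.1 and 81.97 CPM in TolDC. For BMDC, levels were 30.5, 31.7 and 32.2 CPM with LPS and 41.9, 38.6 and 44.3 CPM without LPS. The 2 TolDC groups were above the 2 BMDC groups. Mt2 had 45.6, 34.1 and 38.5 CPM in TolDC with LPS and 1.23, 1.796 and 2.396 CPM in TolDC. Levels of 7.85, 9.999 and 9.89 CPM were measured in BMDC with LPS, against 0.247, 0.648 and 0.775 CPM in BMDC. Mt2 was close to the floor without LPS, where 3 counts in a library equal 0.0718 to 0.137 CPM and the lowest library held 7 counts, and the 4 groups did not overlap. Mt2 rose by 4.43 ± 0.22 in TolDC and 4.06 ± 0.30 in BMDC (edgeR adjusted p = 6.59e-09 and 2.76e-07), the largest changes of any member. Mt1 rose in TolDC (0.32 ± 0.061) and fell in BMDC (−0.40 ± 0.068), and these responses differed by 0.72 ± 0.092 (edgeR adjusted p = 7.27e-06). With LPS, Mt1 was higher in TolDC than in BMDC by 1.61 ± 0.066 and Mt2 by 2.10 ± 0.17, and without LPS by 0.89 ± 0.064 and 1.73 ± 0.40 (edgeR adjusted p = 2.14e-09 for Mt1 and 0.0031 for Mt2).

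The start regions of Mt1 and Mt2 are shown because both genes were higher in TolDC, and metallothionein genes are known for zinc-responsive elements bound by MTF1. Capitals mark TGCACNC or TGCGCNC, cores of the metal response element, searched on both strands in the same RefSeq windows. Positions count from the RefSeq start of each window. Whether the cells use that start was not tested, and matches outside the window were not searched. The Mt1 window (chr8:94178839-94179138, plus strand) held 3, from positions −23, 3 and 21. The Mt2 window (chr8:94172368-94172667, plus strand) held 4, from −223, −128, −50 and 5, and also a TGACNNNGC match from −79 that overlaps none of them.
Mt1: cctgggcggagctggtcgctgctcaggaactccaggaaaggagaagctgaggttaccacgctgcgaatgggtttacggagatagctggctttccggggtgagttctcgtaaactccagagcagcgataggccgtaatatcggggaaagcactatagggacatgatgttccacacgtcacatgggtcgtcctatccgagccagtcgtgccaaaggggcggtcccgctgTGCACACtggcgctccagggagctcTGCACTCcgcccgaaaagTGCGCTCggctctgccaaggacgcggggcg
Mt2: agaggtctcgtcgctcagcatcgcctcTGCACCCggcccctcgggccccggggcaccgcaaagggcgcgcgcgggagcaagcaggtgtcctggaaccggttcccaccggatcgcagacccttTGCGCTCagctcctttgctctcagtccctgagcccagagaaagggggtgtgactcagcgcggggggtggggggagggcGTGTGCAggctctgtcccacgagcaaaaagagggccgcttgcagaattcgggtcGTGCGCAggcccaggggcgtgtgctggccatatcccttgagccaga
This core is common: 10 of the 33 members with a window (30.3%) held it, against 7630 of 27025 genes (28.2%).

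Another gene of the cluster, Mt3 (chromosome 8, 94152607 to 94154146 of GRCm38, plus strand), and the MTF1-dependent zinc exporter Slc30a1 were also measured. Mt3 averaged 38.8 ± 5.09 CPM in TolDC with LPS and 63.8 ± 3.01 CPM in TolDC, and 2.32 ± 0.0879 CPM in BMDC with LPS and 13.6 ± 1.196 CPM in BMDC. It was higher in TolDC by 4.07 ± 0.11 with LPS and 2.24 ± 0.083 without (edgeR adjusted p = 7.20e-15 and 3.98e-13), and LPS lowered it by log2 changes of −0.72 ± 0.074 in TolDC and −2.55 ± 0.13 in BMDC. Slc30a1 averaged 11.8 ± 0.637 CPM in TolDC with LPS and 12.4 ± 1.11 CPM in TolDC, and 3.91 ± 0.0815 CPM in BMDC with LPS and 5.47 ± 0.253 CPM in BMDC. It was higher in TolDC by 1.59 ± 0.093 with LPS and 1.18 ± 0.088 without. Mtf1, which encodes the zinc sensor itself, differed between TolDC and BMDC by −0.27 ± 0.043 with LPS and by 0.02 ± 0.044 without, the second of which was not called (edgeR adjusted p = 0.738).

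**Figure D4:**
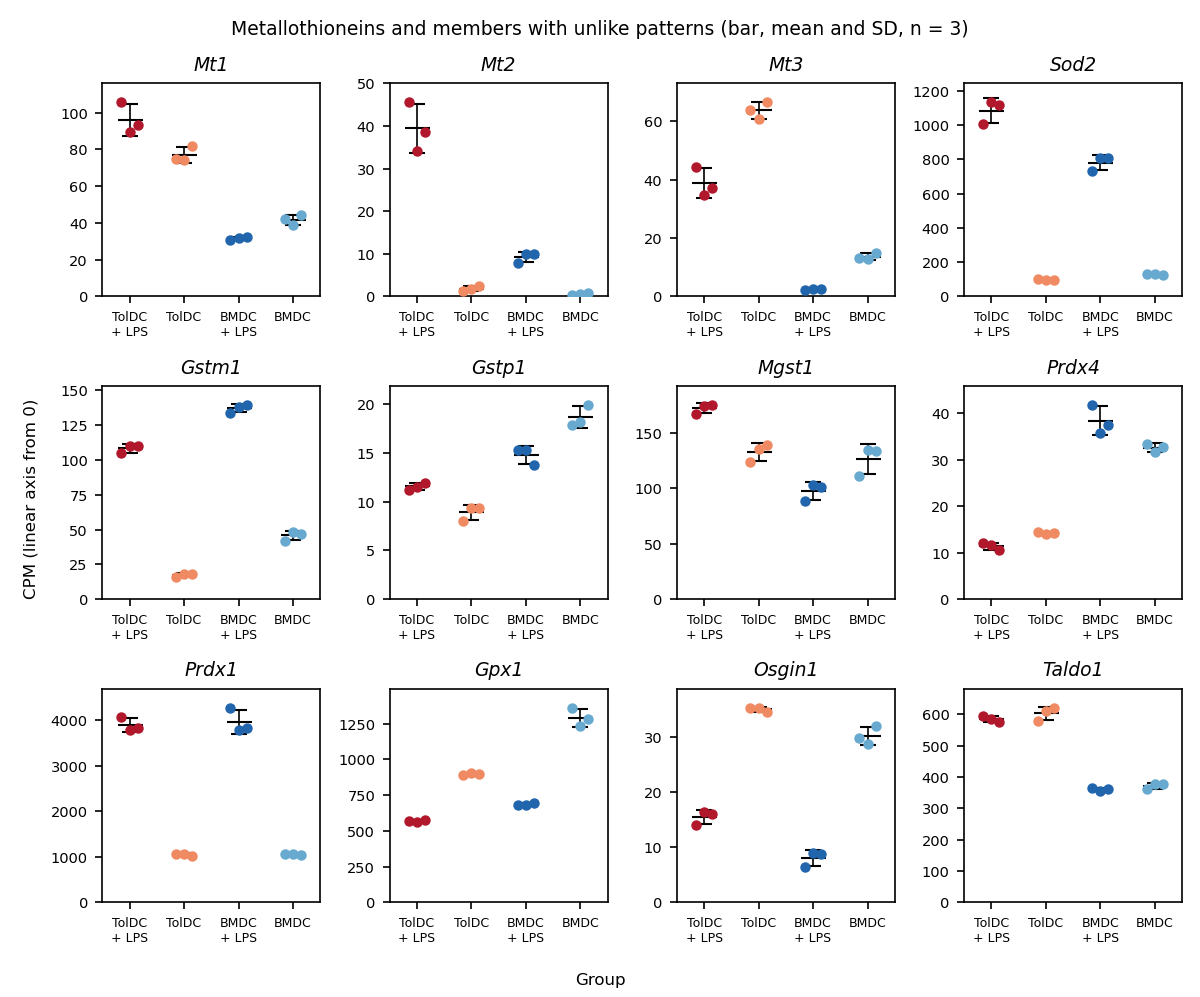
Level in CPM (linear axis from 0) of Mt1, Mt2, the neighbouring Mt3 and 9 other genes in each library (points), with mean and SD per group (bars, n = 3). Mt1 and Mt3 are higher in both TolDC groups, and Mt2 appears mainly with LPS. Sod2 stands far above its unstimulated level with LPS, and Mgst1 rises in TolDC but falls in BMDC.

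LPS raised 21 members in both kinds of cell and lowered 4 in both (Prdx3, Gpx1, Tkt and Osgin1), against 26.9% of all genes raised in both and 26.6% lowered in both. Gstp1, Mgst1 and Mt1 rose in TolDC and fell in BMDC, and Prdx4 fell in TolDC and rose in BMDC, and 4.81% of all genes were called in opposite directions. These 4 opposite pairs were all called in the test of the difference, with 0.71 ± 0.11 for Gstp1, 0.75 ± 0.11 for Mgst1, 0.72 ± 0.092 for Mt1 and −0.56 ± 0.093 for Prdx4 (edgeR adjusted p = 3.47e-05, 9.84e-05, 7.27e-06 and 8.05e-05). In all, 15 members had a response in TolDC above that in BMDC and 10 below it, against 20.4% and 24% of all genes and 44.4% in either direction. The median difference was 0.15 for the members and −0.0095 for all genes. By role, all 5 called members other than Nqo1 among the detoxification genes and metallothioneins lay above, all 3 called NADPH genes below, both thioredoxin genes called (Txn1 and Srxn1) above, and the other 4 roles held both directions. The calls for Cat (−0.16 ± 0.061) and Me1 (−0.71 ± 0.25) were lost when single libraries were left out. For Cat these were replicates 2 and 3 of BMDC and of TolDC with LPS, 1 and 3 of BMDC with LPS and 1 and 2 of TolDC (−0.165 to −0.117). For Me1 they were replicates 2 and 3 of BMDC, 1 of BMDC with LPS, 1 and 3 of TolDC and 1 and 2 of TolDC with LPS (−0.67 to −0.57).

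**Figure D5:**
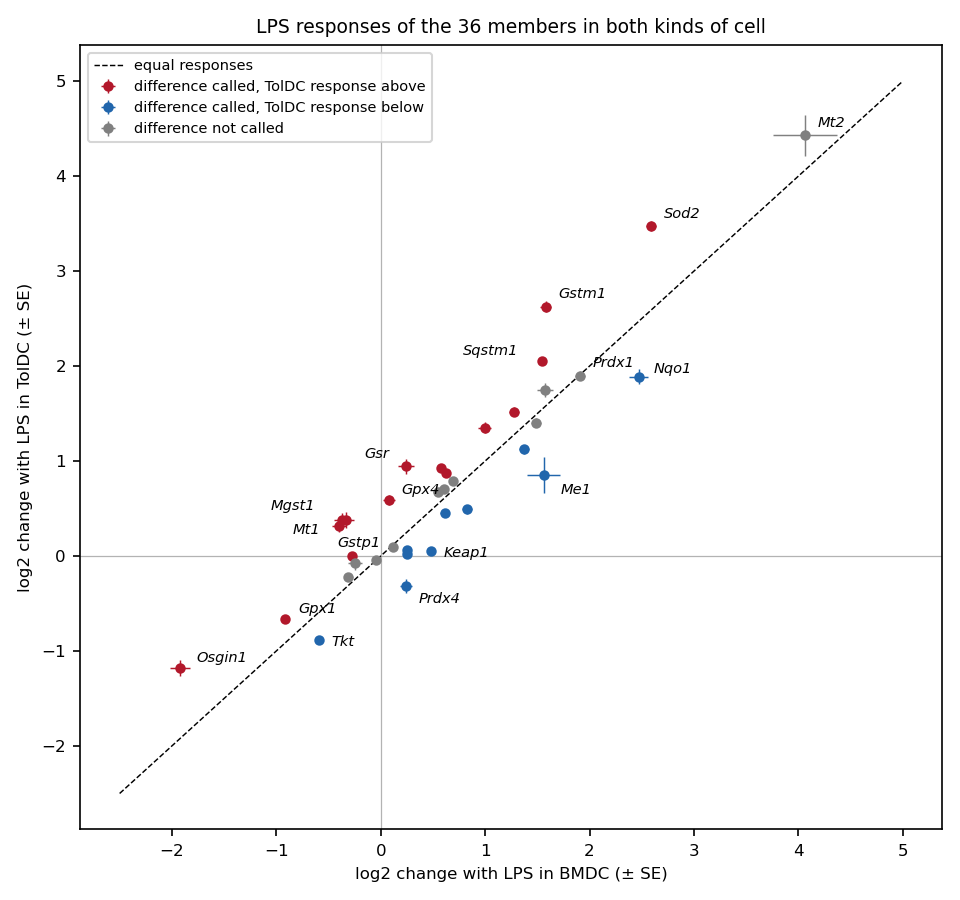
Log2 change with LPS in TolDC (vertical) against that in BMDC (horizontal) for the 36 genes, ± SE, with the dashed line at equal responses. Sod2, Gstm1 and Sqstm1 lie above the line and Nqo1, Me1 and Prdx4 below it, while Gstp1, Mgst1 and Mt1 fall in the quadrant of a rise in TolDC and a fall in BMDC.

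Between the cell types, 8 of the 36 members were higher in TolDC in both states and 11 lower in both, against 20.7% and 20.1% of all genes, so the share of members higher in both was near that of all genes. The 8 were Txnrd1, Cat, Pgd, Taldo1, Nqo1, Osgin1, Mt1 and Mt2, and the 11 were Nfe2l2, Bach1, Txn1, Txnip, Srxn1, Prdx4, Sod1, Gpx1, Me1, Gstm1 and Gstp1. Sod2, Gpx4 and Prdx6 were lower in TolDC without LPS and higher with it, and Keap1 and Tkt the reverse, while 6.91% of all genes were called in opposite directions. Some of these patterns rest on calls that were lost when single libraries were left out. Such calls were those of Gpx4, Keap1 and Osgin1 without LPS and of Prdx6, Txn1 and Txnrd1 with LPS. The call of Cat with LPS was lost with libraries numbered 2 and 3 summed. For Tkt the values were −0.16 ± 0.033 with LPS and 0.14 ± 0.033 without.

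Other genes of the same pathways, from a list of 84 of which 79 were tested, were divided between rises and falls with LPS. It raised 30 (38%) and lowered 34 (43%) of the 79 in BMDC, against 36.7% and 36.4% of all genes. In TolDC it raised 35 (44.3%) and lowered 25 (31.6%), against 35.4% and 35.9%. The median log2 changes were −0.11 in BMDC and 0.055 in TolDC. Without LPS 24 (30.4%) were higher and 31 (39.2%) lower in TolDC than in BMDC, against 32% and 30.4% of all genes. With LPS 38 (48.1%) were higher and 23 (29.1%) lower, against 34.3% and 33.7%. The responses differed upward in 34 (43%) and downward in 9 (11.4%), against 20.4% and 24%. Without LPS the median difference between TolDC and BMDC was −0.067, and with LPS it was 0.19. With libraries numbered 2 and 3 summed, 22 rather than 34 differed upward. Hmox1, haem oxygenase, averaged 3233 ± 266 CPM in TolDC with LPS and 737 ± 15.003 CPM in TolDC, and 1261 ± 8.404 CPM in BMDC with LPS and 327 ± 6.42 CPM in BMDC. It was higher in TolDC by 1.36 ± 0.047 with LPS and 1.17 ± 0.047 without (edgeR adjusted p = 1.19e-14 and 1.38e-13). The ferritin chains Fth1 and Ftl1, which store iron, rose with LPS by 2.53 ± 0.045 and 1.02 ± 0.039 in TolDC and by 2.12 ± 0.044 and 0.69 ± 0.039 in BMDC.

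The largest rises with LPS among these other genes were in Gstm2, another mu-class transferase (4.28 ± 0.14 in TolDC and 4.21 ± 0.15 in BMDC), followed by Fth1 and Hmox1. Aldh3a1, an aldehyde dehydrogenase, and Ephx1, the microsomal epoxide hydrolase, fell in both kinds of cell. The log2 changes were −1.71 ± 0.10 in TolDC and −2.71 ± 0.092 in BMDC for Aldh3a1, and −2.32 ± 0.072 in TolDC and −2.37 ± 0.068 in BMDC for Ephx1. Gss, which completes glutathione, averaged 132 ± 10.3 CPM in TolDC with LPS and 89.4 ± 4.11 CPM in TolDC, and 55.7 ± 6.301 CPM in BMDC with LPS and 30.1 ± 0.979 CPM in BMDC, and was higher in TolDC without LPS by 1.57 ± 0.076 (edgeR adjusted p = 1.58e-10). Gpx3, the secreted glutathione peroxidase, had a log2 difference of −3.29 ± 0.17 there, and Aldh3a1 of −1.62 ± 0.083. With LPS, Akr1b8, an aldo-keto reductase, was higher in TolDC by 2.34 ± 0.13 and Chac1, which degrades glutathione, by 1.63 ± 0.14. Trp53inp1, a stress-induced p53 cofactor (−1.23 ± 0.078), and Gstt3, a theta-class transferase (−1.11 ± 0.074), were lower. The differences between the LPS responses were led by Mt3 (1.83 ± 0.15), Akr1b8 (1.32 ± 0.19) and Ggt5 (1.12 ± 0.37) upward and Trp53inp1 (−0.89 ± 0.11) and Osgin2 (−0.74 ± 0.099) downward.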

How the data were processed

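The deposited values are raw read counts per gene for 12 libraries. Per the submitters' processing notes, which give no versions or settings, the authors named cutadapt, STAR, edgeR, limma and the mouse genome mm10 (GRCm38). Per the labels' protocols the library kit was stranded. The deposited counts have a column without regard to strand and one per strand. Column 4, with 35.2 to 37.3 times the total of column 3, was analysed, and column 2 was an alternative. Of 31054 identifiers, 31011 matched GENCODE M21. Summary rows that name no gene, 19.4% to 20.7% of each library, were left out. Reads matching several places are not in such counts.

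Genes were filtered with filterByExpr, scaled with TMM (factors 0.945 to 1.04) and fitted with edgeR 4.0.16 (R 4.3.3), with 1 mean per group, robust dispersions and no block. The biological coefficient of variation was 0.0572. Alternatives used limma 3.58.1, DESeq2 1.42.0, other scalings, filters and library sets. CPM per kilobase used merged GENCODE exons, and 50-base stretches were compared over its transcripts. The members, the list of other genes (Nnt, with 2 identifiers, left out) and the alternatives were chosen with earlier results of these data known. Values in every library are given for members with the 4 largest rises and 3 largest falls in a comparison at 5 CPM or more, and for Nfe2l2, Keap1, Bach1, Sqstm1, Nqo1, Mt1 and Mt2. Other pathway genes named are the 3 largest rises and 2 largest falls among those called in a comparison at 5 CPM or more, and Hmox1, Fth1 and Ftl1. Mtf1 was named outside this rule, after its values were seen. The floor of 3 counts covers counting error only, while each SD and SE includes the spread between libraries.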

Additional observations from a re-analysis of the deposited data

Results flagged for a closer look

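For 25 of the 36 members the LPS response in TolDC differed from that in BMDC in edgeR's test of the difference itself (adjusted p below 0.05), against 44.4% of all genes. The differences, TolDC minus BMDC on the log2 scale, were positive for Gstm1 (1.05), Sod2 (0.88), Mgst1 (0.75), Osgin1 (0.74), Mt1 (0.72), Gstp1 (0.71), Gsr (0.70), Gpx4 (0.51), Sqstm1 (0.51), Prdx5 (0.36), Txn1 (0.35), Nfe2l2 (0.28), Gpx1 (0.25), Prdx6 (0.25) and Srxn1 (0.24). They were negative for Me1 (−0.71), Nqo1 (−0.59), Prdx4 (−0.56), Keap1 (−0.43), Gclc (−0.33), Tkt (−0.29), Gclm (−0.25), Prdx2 (−0.23), G6pdx (−0.19) and Cat (−0.16). For Nfe2l2, Gpx1 and Osgin1 a positive difference meant a smaller fall or no call in TolDC, and for Tkt a negative one a larger fall.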

How the results depend on the processing

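Of the 147 member calls, 12 were lost when at least 1 library was left out, 12 with libraries numbered 2 and 3 of each group summed into 1 library, 2 without the 4 libraries numbered 1, and none with the replicate block. The 12 calls lost on summing were those of Gsr (0.25) and Pgd (0.11) for LPS in BMDC, Pgd (0.0998) for LPS in TolDC, Keap1 (0.12) and Osgin1 (0.21) between TolDC and BMDC without LPS, Txn1 (−0.088), Txnrd1 (0.14), Prdx3 (0.101), Prdx6 (0.11) and Cat (0.13) with LPS, and Cat (−0.17) and Me1 (−0.72) for the difference. The replicate number was a block in an alternative fit only, since the labels do not say what a number marks. Same-numbered libraries did tend to deviate together, as a hint from the data and not the design: their deviations correlated over 0.1 in 17 of 18 pairs (0.091 to 0.466), and 10 of 12 libraries correlated best with their own number. Pairs numbered 1 gave 0.33 to 0.466 and the others 0.091 to 0.276. Deviations were taken from group means, so libraries numbered 1 that stand apart make libraries 2 and 3 correlate across groups whatever their number. The count of pairs therefore cannot tell what the numbers 2 and 3 mark. The block gained 6 calls, and leaving out the libraries numbered 1 gained 9. No called value changed its sign under any of the 23 alternatives, which were RLE and upper-quartile factors, DESeq2, limma-voom, other filters, unstranded counts, fits of only the groups compared and the library sets named. Calls were lost, however, with upper-quartile factors (6), DESeq2 (5), no filter (5), only the groups compared (3), RLE factors (2) and unstranded counts (2). With limma-voom and the filter at 1 CPM, none was lost. Upper-quartile factors shifted the median of all genes most, by 0.083 at most. Counts of members called over the leave-one-out fits stayed at 23 to 26 higher and 9 lower for LPS in BMDC, 24 to 26 and 5 for LPS in TolDC, 13 to 14 and 17 to 18 without LPS, 11 to 14 and 12 to 16 with LPS, and 15 to 18 and 8 to 10 for the difference.

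Requiring at least a 2-fold change, 11 members, 10 other pathway genes and 1472 genes of all were higher and 1, 15 and 1444 lower for LPS in BMDC. 11 members, 12 other pathway genes and 1267 genes of all were higher and 1, 7 and 1396 lower for LPS in TolDC. 2 members, 8 other pathway genes and 853 genes of all were higher and 3, 5 and 1055 lower for TolDC against BMDC without LPS. 2 members, 12 other pathway genes and 900 genes of all were higher and 2, 4 and 1248 lower for TolDC against BMDC with LPS. 1 member, 6 other pathway genes and 482 genes of all were higher and 0, 0 and 607 lower for the difference between the LPS responses. With libraries numbered 2 and 3 summed, which leaves 2 libraries a group, 22 other pathway genes were called with a larger response in TolDC, rather than 34.

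The sign turned only in values that were not called. Gpx4 for LPS in BMDC was 0.0776 and became −0.00483 with upper-quartile factors. Nfe2l2 for LPS in TolDC was 0.00312 and became −0.0192 with upper-quartile factors, −0.000285 with only the groups compared, −0.00326 with the libraries numbered 1 left out and −0.00622 to 0.0183 with 1 library left out. Prdx2 for LPS in TolDC was 0.0215 and became −0.00088 with upper-quartile factors. Prdx1 for TolDC against BMDC without LPS was −0.0146 and became −0.0524 to 0.00727 with 1 library left out. Prdx3 for TolDC against BMDC without LPS was 0.0103 and became −0.011 with RLE factors, −0.0097 with DESeq2, −0.0106 with unstranded counts, −0.0248 with the libraries numbered 1 left out and −0.0281 to 0.0362 with 1 library left out. Mgst1 for TolDC against BMDC without LPS was 0.0715 and became −0.0153 to 0.12 with 1 library left out. Gsr for TolDC against BMDC with LPS was 0.0363 and became −0.00393 with libraries 2 and 3 summed and −0.00697 to 0.109 with 1 library left out. Prdx1 for TolDC against BMDC with LPS was −0.0237 and became 0.0332 with upper-quartile factors, 0.0031 with the libraries numbered 1 left out and −0.0669 to 0.0346 with 1 library left out. Prdx2 for TolDC against BMDC with LPS was 0.00235 and became −0.0167 with RLE factors, −0.0146 with DESeq2, −0.000801 with the 1 CPM filter, −0.0103 with unstranded counts, −0.00711 with only the groups compared, −0.0112 with the libraries numbered 1 left out and −0.0405 to 0.0301 with 1 library left out. Prdx5 for TolDC against BMDC with LPS was 0.00427 and became −0.0147 with RLE factors, −0.0123 with DESeq2, −0.00717 with unstranded counts, −0.00481 with only the groups compared, −0.000688 with libraries 2 and 3 summed and −0.0467 to 0.0403 with 1 library left out. Blvrb for TolDC against BMDC with LPS was 0.00872 and became −0.0103 with RLE factors, −0.00791 with DESeq2, −0.000649 with only the groups compared and −0.0161 to 0.0365 with 1 library left out. Prdx1 for the difference between the LPS responses was −0.00908 and became 0.0515 with upper-quartile factors, 0.019 with no filter, 0.00335 with unstranded counts, 0.0239 with the libraries numbered 1 left out and −0.0411 to 0.0498 with 1 library left out. Pgd for the difference between the LPS responses was −0.0237 and became 0.0355 with upper-quartile factors, 0.00469 with no filter and −0.065 to 0.00319 with 1 library left out. Taldo1 for the difference between the LPS responses was −0.000315 and became 0.00201 with RLE factors, 0.0595 with upper-quartile factors, 0.00288 with DESeq2, 0.028 with no filter, 0.0031 with the 1 CPM filter, 0.011 with unstranded counts, 0.0132 with libraries 2 and 3 summed and −0.0254 to 0.0225 with 1 library left out. The cause was not tested. The lowest counts, 7 for Mt2 and 28 for Me1, limit those genes most.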
